A study of Mus musculus and Rattus norvegicus with 14 samples.

Results

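Dbp, Tef and Hlf are the 3 PAR bZIP genes of the mouse table, which lists 54532 genes. They were picked by gene symbol, and chosen by their levels in the groups described here, which were already known, so differences of the 3 genes between the groups are given as a description with no test. All 3 were among the 13000 genes that passed a filter on low values, which asked for 1 FPKM or more in 3 or more libraries. The gene lists used further on, with Nfil3 among them, were also chosen with earlier results of these data known. Their counts and p-values are therefore no independent evidence. Levels are scaled FPKM, that is reads per kilobase of gene length and per library size after a median-of-ratios scaling between libraries, so that levels of different genes can be set side by side.

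Messenger RNA was sequenced from mouse heart tissue in 4 groups of 3 libraries, labelled Sham, Model, SQ-3 and LQ-40. The latter pair carry the names of coded agents, whose influence on fibrosis of the myocardium and whose likeness in structure the study set out to examine. Strain, age, genotype, dose, how the Model group was made and the hour at which hearts were taken are not in the labels used here. Nor is it stated whether hearts given an agent also went through what the Model hearts did. Any difference between groups in the hour of collection cannot be told apart from the group itself, which bears on every clock gene below. The labels do not tie libraries to animals, and p-values thus cover only sample-to-sample spread, perhaps of technical origin.

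PAR bZIP factors are transcription factors with a basic region and leucine zipper next to a domain rich in proline and acidic residues. In the circadian clock, the activators BMAL1 (gene Arntl) and CLOCK bind E-boxes and drive rhythmic transcription of Dbp, of the period and cryptochrome repressors and of the REV-ERB genes. DBP, TEF and HLF proteins then activate genes that carry D-boxes. NFIL3 (also called E4BP4) binds the same element and represses it. The best studied targets of DBP, TEF and HLF lie in detoxification and lipid metabolism of liver. Mice that lack DBP, TEF and HLF together have been described with heart enlargement.

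Sequence upstream of the members and of 3 genes of the same loop is shown because these genes were low or high in the same groups of hearts as the members, or had the opposite pattern. RefSeq sequence (GRCm38.p6, the assembly that mm10 is built on) was searched over the 250 bases before each annotated start. The letters searched on both strands were CACGTG for the E-box, TTATGTAA and TTACGTAA for the D-box, TAGGTCA for the element bound by REV-ERB and ROR proteins, and TGACGTCA for the cyclic AMP response element. All were chosen after the sequences of the members had been seen, and the last was taken up from the Hlf sequence. Capitals mark matches, each sequence runs 5′ to 3′ on the strand of the gene, and bases inside exons of the same gene are left out apart from sites of 30 bases. For Nfil3 only such a site is printed, and the bases before its exons, which held no match, are left out too.
Dbp, chr7:45704997-45705087, plus strand: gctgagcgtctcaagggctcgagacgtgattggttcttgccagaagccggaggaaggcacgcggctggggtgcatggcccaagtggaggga
Tef, first start, chr15:81802534-81802563, plus strand: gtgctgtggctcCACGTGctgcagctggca
Tef, second start, chr15:81811164-81811413, plus strand: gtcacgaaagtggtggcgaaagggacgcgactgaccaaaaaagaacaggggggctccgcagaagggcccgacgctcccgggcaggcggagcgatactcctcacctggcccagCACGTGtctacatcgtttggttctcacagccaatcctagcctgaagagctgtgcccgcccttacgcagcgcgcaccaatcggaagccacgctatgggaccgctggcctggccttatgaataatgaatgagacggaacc
Hlf, chr11:90390918-90391167, minus strand: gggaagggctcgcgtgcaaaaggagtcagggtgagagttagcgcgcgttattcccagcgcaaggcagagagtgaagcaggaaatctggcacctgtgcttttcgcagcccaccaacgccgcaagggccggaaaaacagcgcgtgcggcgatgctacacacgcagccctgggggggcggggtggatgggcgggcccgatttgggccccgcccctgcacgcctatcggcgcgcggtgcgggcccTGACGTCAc
Ciart, chr3:95882252-95882478, minus strand: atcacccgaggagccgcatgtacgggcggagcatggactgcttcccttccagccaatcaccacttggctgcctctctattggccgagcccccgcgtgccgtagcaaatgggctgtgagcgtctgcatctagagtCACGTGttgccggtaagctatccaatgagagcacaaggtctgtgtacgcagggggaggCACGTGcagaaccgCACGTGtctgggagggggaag
Per3, chr4:151044666-151044915, minus strand: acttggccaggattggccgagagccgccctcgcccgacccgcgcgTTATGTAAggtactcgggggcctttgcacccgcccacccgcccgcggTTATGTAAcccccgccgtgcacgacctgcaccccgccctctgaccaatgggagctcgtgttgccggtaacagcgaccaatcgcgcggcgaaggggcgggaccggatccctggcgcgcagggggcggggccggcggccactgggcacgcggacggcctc
Nfil3, chr13:52981040-52981069, minus strand: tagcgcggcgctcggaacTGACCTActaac

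Both annotated starts of Tef had an E-box, 127 and 138 bases upstream. The window of Ciart, which encodes a clock repressor, held 3 E-boxes, at 116, 58 and 44 bases. Among all 32851 promoter windows of this length, 6.02% held an E-box. The window of the period gene Per3 held 2 D-boxes, at 205 and 158 bases, where 0.931% of all windows held any. Nfil3 had the REV-ERB and ROR letters 12 bases before its start, which 2.23% of windows held, and Hlf had the cyclic AMP response element 9 bases before its start, which 1.55% held. The Dbp window held none of these letters, which says only that they are not in these bases. Over the 20 genes of the members and the clock loop that had a window, 5 genes held an E-box and 1 gene each of the other elements. Counted by window, as in the shares of all windows, 6 of 29 held an E-box. Besides Tef and Ciart, the E-box genes were Bhlhe41, Cry1 and Per1, whose sequence is not shown. In Model against Sham, Bhlhe41 and Per1 were not called by limma (adjusted p = 0.168 and 0.437), and the call of Cry1 depended on single libraries.

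Dbp (ENSMUSG00000059824, chromosome 7, 45705088 to 45710203, plus strand, mm10) takes its name from the D-box of the albumin promoter. The Sham libraries held 36.1, 41.5 and 43.0 scaled FPKM of Dbp. The Model libraries held 3.77, 6.10 and 2.54. Every Model library was thus far under every Sham library, and the group means were 4.14 ± 1.81 against 40.2 ± 3.64 (SD, n = 3 each). The LQ-40 libraries held 32.8, 40.9 and 31.7 and the SQ-3 libraries 39.6, 32.3 and 35.5. Both compound groups overlapped the Sham range for Dbp and stood above all Model libraries.

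Tef (ENSMUSG00000022389, chromosome 15, 81802421 to 81826863, plus strand) encodes thyrotroph embryonic factor, first described in the pituitary and expressed in many tissues. Its levels were 31.7, 33.5 and 27.2 scaled FPKM in Sham and 6.92, 8.05 and 6.74 in Model hearts. The LQ-40 libraries held 30.4, 33.2 and 24.5. The SQ-3 libraries held 25.9, 24.8 and 20.5, so that all 3 lay under the lowest Sham library while still above every Model library. The Tef means were 30.8 ± 3.24 for Sham, 7.24 ± 0.713 for Model, 29.4 ± 4.45 for LQ-40 and 23.7 ± 2.85 for SQ-3 (SD, n = 3 each).

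Hlf (ENSMUSG00000003949, chromosome 11, 90336536 to 90390895, minus strand) encodes hepatic leukemia factor and was the least abundant member. It stood at 7.99, 8.50 and 7.39 scaled FPKM in Sham and at 0.705, 1.93 and 0.780 in Model hearts. The LQ-40 libraries held 9.30, 8.66 and 5.81 and the SQ-3 libraries 6.95, 4.69 and 6.22. The Hlf means were 7.96 ± 0.555 for Sham, 1.14 ± 0.688 for Model, 7.92 ± 1.85 for LQ-40 and 5.95 ± 1.15 for SQ-3 (SD, n = 3 each). As for Tef, the SQ-3 libraries of Hlf lay below the Sham range, and the LQ-40 libraries overlapped it.

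**Figure D1:**
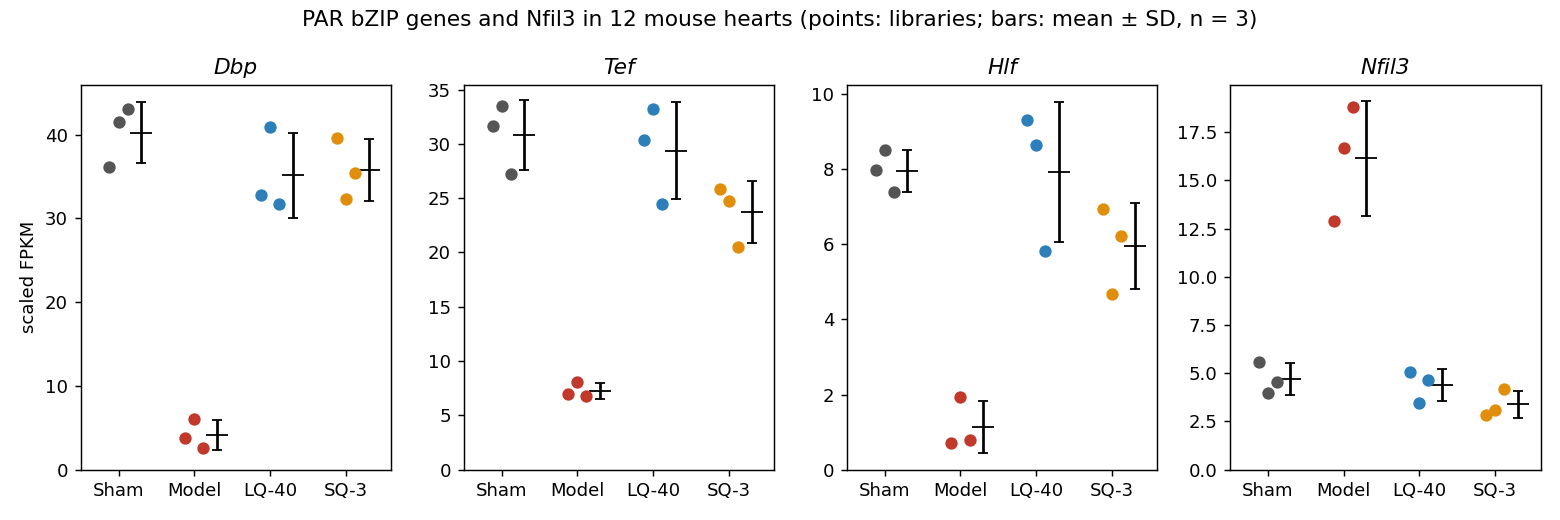
Scaled FPKM of Dbp, Tef, Hlf and the D-box repressor Nfil3 (vertical axes, each from 0) in the 12 mouse libraries by group; points are libraries and bars show the mean ± SD of 3. Dbp lies between 2.54 and 6.10 in Model and at 31.7 or more in every other library, while Nfil3 lies between 12.9 and 18.8 in Model and at 5.57 or less elsewhere.

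The order of the groups for each member was Model lowest, with no overlap with any other group. Above it, Sham, LQ-40 and SQ-3 overlapped for Dbp. For Tef and Hlf the order from the top was Sham, LQ-40 and SQ-3, where LQ-40 overlapped both neighbours. Counting precision was not limiting for Dbp and Tef, which had at least 130 and 905 reads in each library. Hlf rested on 81 to 193 reads in Model libraries and on 527 or more in the others.

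Differences were fitted on log2(scaled FPKM + 1), a scale that shrinks the change of genes with few reads. Model minus Sham was -3.06 for Dbp (SE 0.21), -1.95 for Tef (SE 0.14) and -2.11 for Hlf (SE 0.22). These differences took places 62, 258 and 196 by size among the 13000 genes tested. All 3 members had Model libraries below Sham libraries without overlap, as did 25.7% of all genes tested. With a pseudocount of 0.1 in place of 1 the Hlf difference was -2.83.

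LQ-40 minus Model was 2.86 for Dbp (SE 0.21), 1.88 for Tef (SE 0.14) and 2.08 for Hlf (SE 0.22), which were places 6, 32 and 19 of 13000. SQ-3 minus Model was 2.89, 1.58 and 1.73 with the same errors, at places 3, 38 and 27. Both of these comparisons use the same Model libraries. The members' LQ-40 libraries stood above Model without overlap, as did 7.28% of all genes tested, and for SQ-3 the share of all genes was 12.1%. Fitted folds over Model, which are folds of scaled FPKM + 1, were 7.28 (Dbp), 3.67 (Tef) and 4.24 (Hlf) in LQ-40 and 7.43, 2.99 and 3.32 in SQ-3 hearts. Ratios of the group means of scaled FPKM over Model were larger. They were 8.49 (Dbp), 4.06 (Tef) and 6.95 (Hlf) in LQ-40 and 8.64, 3.27 and 5.22 in SQ-3 hearts.

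LQ-40 was compared directly with SQ-3 because of the study's interest in likeness of structure, and this pair is the only one measured. Gene levels of this pair do not show how alike the structures are. LQ-40 minus SQ-3 was -0.03 for Dbp (95% interval -0.50 to 0.44), 0.29 for Tef (-0.01 to 0.60) and 0.35 for Hlf (-0.13 to 0.84). These intervals, and those against Sham below, describe spread and are no test, since the members were chosen by their levels in these groups. They reach as far as -0.50 (Dbp), 0.60 (Tef) and 0.84 (Hlf) on the log2 scale, so they do not show that the compounds act alike. Against Sham, LQ-40 differed by -0.19 (Dbp, -0.67 to 0.28), -0.07 (Tef, -0.38 to 0.24) and -0.03 (Hlf, -0.51 to 0.46). SQ-3 minus Sham was -0.17 for Dbp (-0.64 to 0.31), -0.37 for Tef (-0.67 to -0.06) and -0.38 for Hlf (-0.86 to 0.11). SQ-3 libraries lay below all Sham libraries without overlap for 16.4% of all genes tested.

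**Figure D2:**
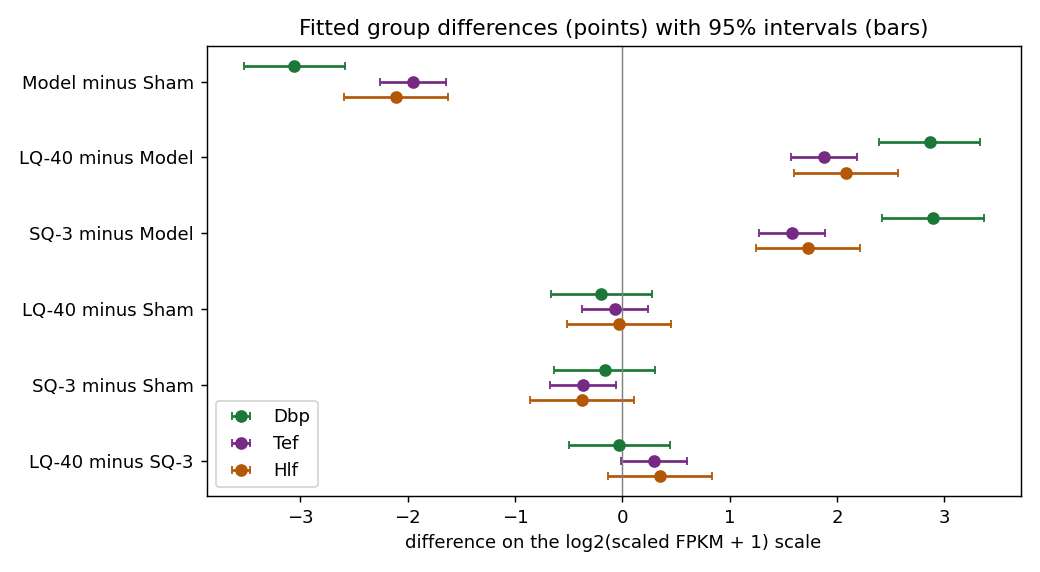
Fitted differences between groups on the log2(scaled FPKM + 1) scale (horizontal axis) for Dbp, Tef and Hlf in 6 comparisons; points are estimates and bars 95% intervals. Model minus Sham lies between -3.06 and -1.95, both compounds minus Model lie between 1.58 and 2.89, and the remaining comparisons lie within 0.38 of 0.

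Inside groups the order of libraries was shared by the members in part. Model 2 held the most Dbp, Tef and Hlf of the Model libraries, LQ-40 3 the least of all 3 genes among the LQ-40 libraries, and SQ-3 1 the most among the SQ-3 libraries. In Sham the orders differed, since Sham 3 held the most Dbp and the least Tef and Hlf. The lowest SQ-3 library differed between the members too, as did the highest LQ-40 library. With 3 libraries a group this was not tested. The summed level of the 3 genes was 75.7 to 83.5 scaled FPKM in Sham, 10.1 to 16.1 in Model, 62.0 to 82.8 for LQ-40 and, for SQ-3, 61.7 to 72.4. Dbp gave 47.6% to 55.4% of that sum in Sham and 25.3% to 37.9% in Model libraries, where Tef took 50.1% to 67.0%. Tef was therefore the most abundant member in Model hearts and Dbp in the other 3 groups.

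The mRNA of NFIL3, which represses through the D-box, had the opposite pattern. Nfil3 libraries ranged from 3.96 to 5.57 scaled FPKM in Sham, 12.9 to 18.8 in Model, 3.48 to 5.07 for LQ-40 and, for SQ-3, 2.85 to 4.20. Nfil3 rose in Model against Sham (log2 1.58, SE 0.17, limma adjusted p = 0.000267). It fell in LQ-40 against Model (log2 -1.66, adjusted p = 0.00201) and in SQ-3 against Model (log2 -1.96, adjusted p = 0.000794). Summed members divided by Nfil3 gave 13.6 to 21.1 in Sham, 0.535 to 0.965 in Model, 13.4 to 23.8 for LQ-40 and, for SQ-3, 14.8 to 25.4. Nfil3 mRNA thus exceeded the summed mRNA of the 3 members in all 3 Model libraries and in none of the other 9. All of these genes were chosen with their levels known, and neither protein nor activity at D-boxes was measured here.

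The rest of the clock loop was followed in a list of 22 genes that excludes the members, of which 19 passed the filter. Its list median was -0.12 on the log2 scale in Model minus Sham, against 0.03 over all genes tested. In Model hearts 6 of the 19 rose and 6 fell (limma), where 38.9% of all genes tested were called (20.9% higher and 18% lower). Leaving out 1 library gave 9 to 10 called clock loop genes. Of the activators, Arntl ranged from 0.145 to 0.365 scaled FPKM in Sham and from 3.42 to 5.75 in Model libraries. It rose by 2.16 on the log2 scale (SE 0.16, adjusted p = 2.86e-05). Clock, its partner, went from 3.29 ± 0.327 to 7.20 ± 0.0597 (SD, n = 3 each, adjusted p = 0.000114), and Npas2, a relative of Clock, from 0.376 ± 0.209 to 3.38 ± 1.45 (adjusted p = 0.00108).

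Genes that fell in Model hearts sat in the repressor arm, which the E-box activators drive as they drive Dbp. Ciart went from 4.65 to 9.61 scaled FPKM in Sham libraries to 0.155 to 1.07 in Model libraries (log2 -2.45, SE 0.28, adjusted p = 0.000358). Per3 fell from 5.58 ± 0.685 to 1.01 ± 0.293 (adjusted p = 2.86e-05), Per2 from 6.16 ± 0.768 to 1.89 ± 0.813 (adjusted p = 0.00302), and the REV-ERB gene Nr1d2 from 38.1 ± 5.15 to 12.3 ± 1.67 (adjusted p = 4.45e-05; SD, n = 3 each). Cry2, a cryptochrome repressor, fell by 0.80 on the log2 scale (adjusted p = 0.000879). Not every gene of this arm was called. Per1, which also answers acute signals, averaged 18.5 ± 1.27 in Sham and 16.0 ± 4.78 in Model hearts (adjusted p = 0.437), while Nr1d1 averaged 28.4 and 30.4 (adjusted p = 0.686). Calls of Cry1 (lower, adjusted p = 0.0312), Bhlhe40 (higher, 0.0296) and Csnk1d (higher, 0.0289) depended on single libraries. Without 1 Sham or 1 Model library they reached 0.0898 for Cry1 (without Model 1), 0.0941 for Bhlhe40 (without Sham 1) and 0.104 for Csnk1d (without Sham 1).

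In LQ-40 against Model hearts 4 of the 19 clock loop genes rose and 4 fell, where 0.669% of all genes tested were called (0.185% higher and 0.485% lower). They made up 8 of the 87 genes called in all, in a list chosen with earlier results of these data known. The list median was 0.02 on the log2 scale, against 0.01 over all genes tested. Those that rose were Per3 (log2 1.88, SE 0.12, adjusted p = 0.000136), Nr1d2 (1.43, 0.000451), Ciart (2.00, 0.00976) and Per2 (1.69, 0.0115). Those that fell were Arntl (-2.02, 0.000222), Nfil3, Clock (-0.79, 0.00311) and Npas2 (-1.69, 0.00976). Without Model 3 the calls of Npas2 (0.0610), Per2 (0.0559) and Ciart (0.0567) were lost, and so was that of Per2 without LQ-40 2 (0.0587). In a fit of these groups alone they were 0.139, 0.139 and 0.121.

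In SQ-3 against Model hearts 3 clock loop genes rose and 4 fell, where 0.346% of all genes tested were called (0.0769% higher and 0.269% lower). They made up 7 of 45 genes called, with a list median of 0.04 against -0.01 over all genes. Per3 rose by 1.47 on the log2 scale (SE 0.12, adjusted p = 0.000794), Nr1d2 by 1.26 (0.00146) and Ciart by 2.06 (0.0122). Arntl (-1.67, 0.00123), Nfil3, Clock (-0.61, 0.0146) and Npas2 (-1.69, 0.0135) fell. Per2 averaged 3.54 ± 1.10 in SQ-3 hearts against 1.89 ± 0.813 in Model hearts (SD, n = 3 each, adjusted p = 0.286). The calls of Clock, Npas2 and Ciart were lost without Model 3 (0.0967, 0.0955 and 0.0696), SQ-3 1 (0.0734, 0.0681 and 0.0548) or SQ-3 2 (0.0527, 0.0532 and 0.0527). Without Model 1 they were 0.0723, 0.0657 and 0.0665, Clock was also lost without Model 2 (0.0681), and Ciart without SQ-3 3 (0.0642).

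**Figure D3:**
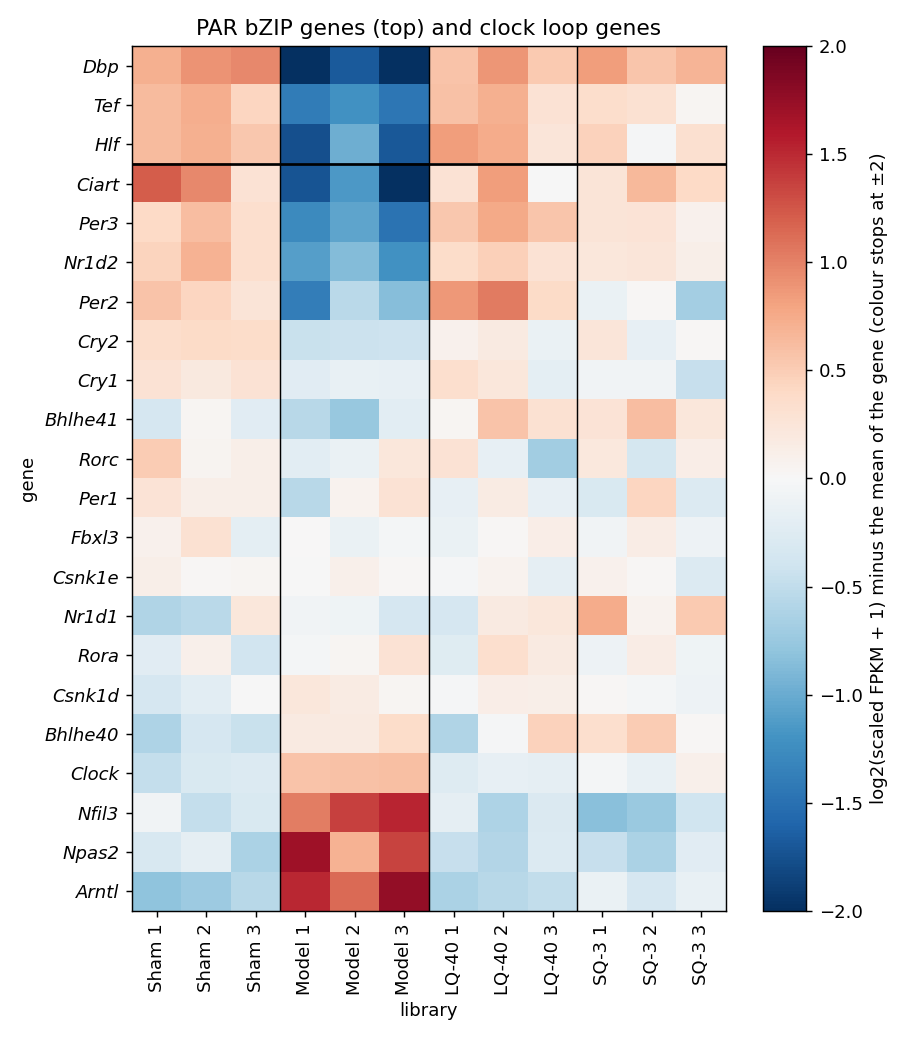
Colour gives log2(scaled FPKM + 1) minus the mean of each gene over the 12 libraries (columns) for Dbp, Tef and Hlf above the line and the 19 tested clock loop genes below it, ordered by Model minus Sham. Ciart, Per3 and Nr1d2 share the members' low values in the Model libraries, and Arntl, Npas2, Nfil3 and Clock are high there.

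Against Sham, limma called 0 of the 19 clock loop genes in LQ-40 hearts and 0 in SQ-3 hearts, where 15.8% and 6.68% of all genes tested were called. Before adjustment 3 and 9 had p under 0.05, and limma-voom on recovered reads called 0 and 2. Without LQ-40 1 the count for LQ-40 was 3, and without Sham 3 the count for SQ-3 was 1. Between the compounds, limma and limma-voom each called 0 of all 13000 genes (0%), 394 genes had an unadjusted p under 0.05 by limma, and 4 of them were in the clock loop. The largest clock loop difference was that of Per2, at 8.22 ± 2.08 in LQ-40 hearts and 3.54 ± 1.10 in SQ-3 hearts (log2 1.03, 95% interval 0.48 to 1.57, adjusted p = 1.00, limma). Per2 was chosen for mention here after its values were seen.

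Genes that textbooks and earlier work place under PAR bZIP factors were followed in a list of 16, of which 6 passed the filter. The other 10 include liver genes. Cyp7a1, the rate-limiting enzyme of bile acid synthesis, had 0 reads in all 12 libraries, and Alb, the albumin gene, had at most 2. In Model hearts 2 of 6 were called, a share near the 38.9% of all genes tested, so the count is no result about the list. Both fell, the mitochondrial thioesterase Acot2 (25.4 to 10.2 scaled FPKM in the means, log2 -1.24, SE 0.33, adjusted p = 0.0142) and its cytosolic relative Acot1 (log2 -0.73, adjusted p = 0.0442). Acot1 and Acot2 are near-identical copies whose reads the counting could split, and the Acot1 call was lost without any one of 5 libraries, up to 0.144 without Sham 1. Ppara, a receptor that drives fatty acid oxidation, averaged 8.28 ± 1.40 in Sham and 4.91 ± 1.41 in Model hearts (SD, n = 3 each, adjusted p = 0.0894). Por, the electron donor of cytochrome P450 enzymes, averaged 15.4 ± 4.83 and 15.4 ± 1.24 (adjusted p = 0.902). The list median was -0.68 in Model minus Sham, against 0.03 over all genes.

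Limma called 0 of 6 target genes in LQ-40 against Model and 0 in SQ-3 against Model, where 0.669% and 0.346% of all genes were called, so these counts say nothing particular of 6 genes. There were 0 at an unadjusted p under 0.05 and 0 by limma-voom in both. List medians were 0.21 and 0.21, against 0.01 and -0.01 over all genes. Against Sham, where 15.8% (LQ-40) and 6.68% (SQ-3) of all genes were called, the counts were also 0 by both tools, with 2 (LQ-40) and 0 (SQ-3) at an unadjusted p under 0.05, although 2 were called in LQ-40 without LQ-40 1. Means of Acot2 were 13.3 scaled FPKM for LQ-40 and 16.8 for SQ-3, between its Model and Sham means, but its libraries were widely spread. By library, LQ-40 held 21.4, 10.3 and 8.26, where Model libraries ranged from 9.26 to 11.5. LQ-40 2 thus lay inside the Model range and LQ-40 3 below it. For SQ-3 the libraries were at 18.8, 9.54 and 22.0, with SQ-3 2 inside the Model range. LQ-40 1, SQ-3 1 and SQ-3 3 lay above all Model libraries and below the lowest Sham library (22.4).

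A further list held 13 genes of heart and muscle that cycle with the clock, and all 13 were tested. In Model hearts 2 rose and 8 fell, where 20.9% of all genes tested were called higher and 18% lower. Leaving out 1 library gave 7 to 10 called output genes. The list median was -0.70 against 0.03 over all genes. Nampt, which makes the NAD precursor, fell from 62.9 ± 4.08 to 20.8 ± 3.26 scaled FPKM (SD, n = 3 each, adjusted p = 0.000769). Usp2, a clock-driven deubiquitinase, fell by 1.72 on the log2 scale (adjusted p = 0.00137), Dgat2, of triglyceride synthesis, by 1.86 (0.00898), and Klf15, a regulator of cardiac metabolism, by 1.24 (0.00604). Ucp3, a mitochondrial uncoupling protein gene of muscle, fell from a mean of 14.4 to 1.51 scaled FPKM (log2 -2.43, adjusted p = 0.00495). Cdkn1a, the cell cycle inhibitor p21, rose from 11.3 ± 1.75 to 34.8 ± 9.84 (adjusted p = 0.000973).

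Against Model, where 0.669% (LQ-40) and 0.346% (SQ-3) of all genes were called, the output list held 1 called gene. Limma called 1 of 13 in LQ-40, Cdkn1a, which fell to 9.45 ± 1.69 (SD, n = 3, adjusted p = 0.00502), and 0 in SQ-3, with 2 at an unadjusted p under 0.05 and 1 by limma-voom. In a fit of LQ-40 and Model alone the adjusted p of Cdkn1a was 0.101, and without LQ-40 3 the count was 3. Nampt libraries ranged from 19.5 to 38.7 scaled FPKM in LQ-40 and from 23.8 to 28.6 in SQ-3 hearts, all below every Sham library. Nampt was lower than in Sham in both (log2 -1.12, adjusted p = 0.0106, and -1.22, adjusted p = 0.00984), and was the 1 output gene called in SQ-3 against Sham, where 1.82% of all genes were called lower. In a fit of LQ-40 and Sham alone the adjusted p of Nampt was 0.0728. Klf15, Usp2 and Kcnip2, a potassium channel subunit, were also called lower in LQ-40 than in Sham, which makes 4 of 13, where 5.93% of all genes tested were called lower (adjusted p = 0.0496, 0.0493 and 0.0496). Those 3 calls were lost without any 1 Sham library, without LQ-40 2 and without LQ-40 3, up to 0.180, 0.163 and 0.168 without LQ-40 3.

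Genes with the most similar course to each member were ranked by the root mean square difference between centred log2(scaled FPKM + 1) profiles over the 12 libraries, among 9529 protein-coding genes whose mean level was 2 scaled FPKM or more. Nearest to Tef were Per3 (0.14), Nr1d2 (0.19), Hlf (0.21), Ciart (0.32) and Pik3ip1 (0.33), a negative regulator of PI3 kinase. Nearest to Hlf were Tef (0.21), Per3 (0.25), Nr1d2 (0.32), Ciart (0.34) and Mid1ip1 (0.36), a regulator of fatty acid synthesis. Dbp, with its larger range, was nearest to Ciart (0.45), Hlf (0.47), Tcap (0.55), Tef (0.55) and Per3 (0.59). Tcap encodes telethonin, a Z-disc protein of the sarcomere. Its group means were 1907 in Sham, 231 in Model, 972 for LQ-40 and, for SQ-3, 968, so that its libraries in both compound groups lay below all Sham libraries, whereas those of Dbp overlapped them.

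Neighbouring genes on the chromosome were looked at in Model against Sham. Car11 and Rpl18, on either side of Dbp, were not called (log2 0.10 and -0.13, adjusted p = 0.716 and 0.527). Sphk2, a sphingosine kinase gene on the opposite strand, overlaps the 3′ end of Dbp (45709467 to 45718002) and rose in Model hearts (log2 0.44, SE 0.14, adjusted p = 0.0315). Because the strand setting of the counting is not given, reads in the overlap of Dbp and Sphk2 cannot be told apart. Next to Tef, Zc3h7b was not called (log2 -0.14, adjusted p = 0.346) and Tob2 fell (-0.48, 0.0132). Next to Hlf, Mmd and Stxbp4 were not called (-0.20 and 0.12, adjusted p = 0.258 and 0.450).

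Cell composition and the whole transcriptome are set beside the members, since in bulk heart tissue fewer cells of a type and less RNA per cell cannot be told apart. Cardiomyocyte markers (8 of 8 tested, none at 0) summed to 18894 to 21337 scaled FPKM in Sham, 9536 to 11309 in Model, 8000 to 16251 for LQ-40 and, for SQ-3, 12519 to 15395. Fibroblast markers (8 of 8, none at 0) summed to 471 to 618, 3317 to 3637, 1118 to 4036 and 1781 to 2333. Macrophage markers (8 of 8, none at 0) summed to 187 to 262, 328 to 416, 309 to 541 and 257 to 353, and endothelial markers (8 of 8, none at 0) to 279 to 370, 273 to 310, 258 to 355 and 285 to 335. In Model against Sham, 6 of 8 cardiomyocyte markers fell, all 8 fibroblast markers rose, 5 macrophage markers rose and 1 fell, and 1 endothelial marker rose and 1 fell, where 20.9% of all genes tested were called higher and 18% lower. The endothelial share of 2 in 8 was below the 38.9% of all genes called. LQ-40 3 had the highest fibroblast sum of all 12 libraries (4036) and the lowest cardiomyocyte sum (8000), and its summed members stood at 62.0 scaled FPKM, above the 10.1 to 16.1 of the Model libraries. On the first principal component of all tested genes, which held 53.4% of the variance, LQ-40 3 lay at 34.3, inside the Model range of 26.3 to 36.2. What part cell composition has in the members' differences was not tested.

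**Figure D4:**
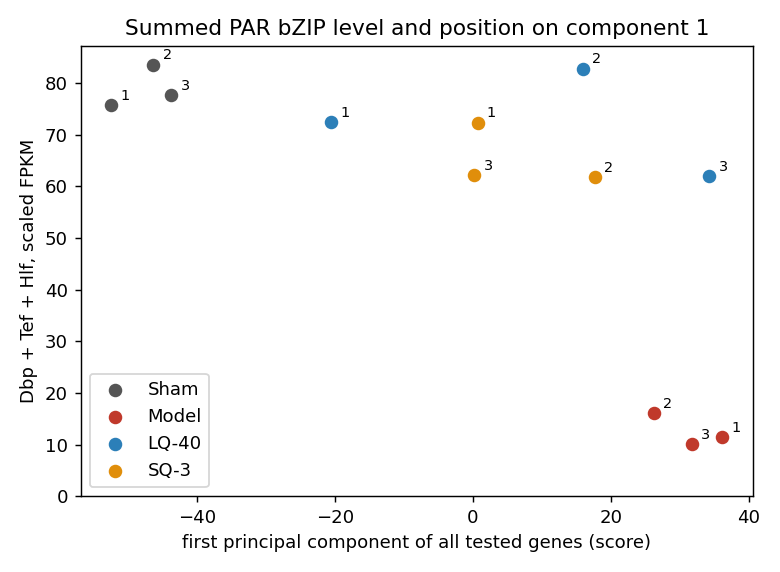
Summed scaled FPKM of Dbp, Tef and Hlf (vertical axis, from 0) against the score on the first principal component of all tested genes (horizontal axis) for the 12 mouse libraries, numbered by replicate. LQ-40 3 sits at 34.3 among the Model libraries on the component but at 62.0 scaled FPKM, where Model libraries reach at most 16.1.

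The members were also measured in a pair of rat libraries, 1 of 2D cells and 1 of a 3D co-culture, that combined heart muscle cells with fibroblasts and macrophages. There was 1 library each and hence no test. Dbp stood at 6.51 scaled FPKM in 2D and 5.84 in 3D. Its read ratio of 3D over 2D was 0.898 (exact 95% interval 0.699 to 1.15, for counting error only). Tef stood at 9.29 and 9.74 (ratio 1.05, 0.924 to 1.19). Hlf had 0 reads in 2D and 1 read in 3D, so no ratio is given. In the same libraries Nfil3 was 1.66 times as high in 3D (1.42 to 1.96) and Ciart 2.15 times (1.52 to 3.06).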

How the data were processed

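The authors deposited FPKM values per gene, with gene lengths and coordinates. Per the submitters' processing notes, fastp, HISAT2 2.0.5 and featureCounts 1.5.0-p3 were used and the builds were mm10 and Rnor_6.0. For the annotation release, the strand setting and multiply matching reads, processing is not given in the sources used here. Library groups came from the sample titles.

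FPKM times gene length stepped in whole reads for 100.0% of values (to the nearest 0.02 of a read), which gave 13085370 to 16698987 reads per mouse library. FPKM were divided by median-of-ratios factors over 10422 genes at 1 FPKM or more throughout. The 13000 genes that reached 1 FPKM in 3 or more of the 12 libraries entered limma 3.58.1 (R 4.3.3) as log2(scaled FPKM + 1) (trend, all 4 groups in one fit, no covariates, two-sided, Benjamini-Hochberg over all genes tested, threshold 0.05). Intervals of differences come from that fit with 10.9 degrees of freedom. The fit was tested on simulated data. Rat read ratios carry exact binomial intervals (scipy 1.17.1).

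The members and the gene lists were chosen with earlier results of these data known. The rule for named genes took the members, Nfil3, up to 6 called genes per list and comparison by smallest p, up to 3 uncalled ones, the 5 nearest profiles per member, and chromosomal neighbours. In the clock loop all called genes are named for completeness, so those past the 6 of smallest p fall outside the rule and were named after their values were seen. Alternatives were other scalings, pseudocounts, filters, sets of samples, a replicate block, limma-voom on recovered reads (added after the data were seen) and leaving out each library. Planned count-model tests on recovered reads were not run, and limma-voom on those reads was used instead.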

Additional observations from a re-analysis of the deposited data

How the results depend on the processing

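Differences of Dbp, Tef and Hlf between Model and each other group kept their direction under all 14 alternatives tried per comparison, and no called gene reversed. With a pseudocount of 0.1, Dbp was -3.33 (Model minus Sham), 3.13 (LQ-40 minus Model) and 3.16 (SQ-3 minus Model) and Hlf -2.83, 2.80 and 2.40. With limma-voom these were -3.38, 3.18 and 3.22 for Dbp and -2.99, 2.95 and 2.55 for Hlf. Leaving out 1 library gave Dbp -3.32 to -2.82, 2.63 to 3.13 and 2.65 to 3.16.

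Counts of called genes moved more. In Model minus Sham, a mean of at least 5 FPKM left 5 clock loop, 1 target and 3284 genes in all, and the groups alone gave 5 target genes. Leaving out 1 library there gave 9 to 10 clock loop, 1 to 2 target, 7 to 10 output and 3288 to 4498 genes in all. In LQ-40 minus Model, a mean of at least 5 FPKM left 2 clock loop genes, the groups alone gave 5 clock loop, 0 output and 14 genes in all, no filter gave 48 in all, and leaving out 1 library gave 5 to 9 clock loop, 1 to 3 output and 31 to 155 genes in all (155 without LQ-40 3). In SQ-3 minus Model, a mean of at least 5 FPKM left 2 clock loop genes and 1 output gene, quantile normalization and limma-voom 1 output gene each, and leaving out 1 library gave 4 to 6 clock loop and 12 to 26 genes in all. In LQ-40 minus Sham, deposited FPKM and no filter gave 1 clock loop gene each, quantile normalization, no filter and the replicate block 1 output gene each, a pseudocount of 0.1 1 target gene, no filter 774 genes in all, the groups alone 0 output and 230 genes in all, and leaving out 1 library 0 to 3 clock loop, 0 to 2 target, 1 to 6 output and 408 to 4372 genes in all (4372 without LQ-40 1). In SQ-3 minus Sham, a pseudocount of 0.1 and limma-voom gave 2 clock loop genes each, the groups alone 1 clock loop and 4 output genes, no filter 262 genes in all, and leaving out 1 library 0 to 1 clock loop, 1 to 2 output and 227 to 444 genes in all. In LQ-40 minus SQ-3, no filter gave 2 genes in all and leaving out 1 library 0 to 1. The stricter filter tests fewer genes, and for the other settings the cause was not tested.

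Replicate numbers in the titles did not pair the libraries (correlations of same-numbered deviations from -0.27 to 0.22, over 0.1 in 3 of 18 pairs). With the replicate block 1 target gene was called in Model minus Sham, 1 target and 1 output gene in LQ-40 minus Sham, and 29 genes in all in SQ-3 minus Model. Depth limited Hlf most, with 81 reads in its lowest Model library.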
